A study of Mus musculus with 40 samples.

Results

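The retinoid receptors and 3 of their cofactors, 9 genes in all, were followed through retinoic acid treatment in mouse embryonic stem cells of 2 genotypes. They are the RAR genes Rara, Rarb and Rarg, the RXR genes Rxra, Rxrb and Rxrg, the corepressor genes Nrip1 and Ncor1, and the coactivator gene Ncoa3. These 9 were taken by symbol out of 23228 gene symbols shared by 8 RNA-seq libraries. The 4 groups of 2 libraries were RA-treated GLP 3A cells, untreated GLP 3A cells, RA-treated wild-type cells and untreated wild-type cells. GLP 3A cells are homozygous for a mutation of the H3K9 methyltransferase GLP, the product of Ehmt1, and the labels do not spell out what 3A changes. All 4 groups are labelled as C57BL/6 of mixed background. How many clones stand behind each genotype is not stated in the sources used here. Every culture had been kept on feeders with serum and LIF and then taken through 2i medium without feeders. RA-treated cells received 1 uM all-trans retinoic acid (RA) and lost LIF at the same moment, so what RA did and what the loss of LIF did cannot be told apart. The sources used here give no duration. The labels do not say that replicates were separate cultures, so the p-values reflect spread between libraries alone, which may be technical. The series holds 40 samples, and its 32 chromatin and input samples are not analysed here.

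RA enters the nucleus and binds RAR proteins, which sit on DNA as heterodimers with RXR proteins. Without RA the heterodimer holds corepressors such as NCOR1, which carry histone deacetylases and keep target genes quiet. When RA binds, the receptor changes shape, releases NCOR1 and takes up coactivators of the p160 family, to which NCOA3 belongs. NRIP1, also called RIP140, is an unusual corepressor because it binds the receptor that carries its ligand. In embryonic stem cells RA ends self-renewal and starts differentiation, and Rarb is itself a classic target of the receptors.

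Sequences of the starts of these genes were looked up for the element that RAR and RXR bind, a direct repeat of 2 half-sites. RefSeq promoter windows of GRCm38.p6, which reach 250 bases before and 50 after a transcription start, were found for 8 of the 9 genes and numbered 17. Ncoa3 had no window. The half-sites searched were AGGTCA with its variant GGGTCA and, further, AGTTCA with its variant GGTTCA, on both strands, and a direct repeat was any pair of them spaced by 1, 2 or 5 bases. Of these 8 genes only Rarb held such a repeat. It reads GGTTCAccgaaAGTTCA, with a spacing of 5, at positions -53 to -37 from the start. A repeat with this spacing was in 32 of all 32851 windows (0.0974%), and any of the 3 spacings in 0.588%. Among 12 RA supply and target genes with a window, 1 held a direct repeat. It was Cyp26a1 on chromosome 19, which encodes the enzyme that degrades RA, and its repeat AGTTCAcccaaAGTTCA lies on the opposite strand at positions -32 to -16. A match describes letters only and shows no binding.

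The windows of Rarb, Nrip1 and Rxra, the 3 genes of the set that were higher with RA, are printed beside a window of Rara, which was not called. The first 3 windows each hold 3 half-sites, and the Rara window holds 4, the highest count among the 17. At least 3 half-sites are in 2.93% of all windows, and 43.7% hold at least 1. Each printed window is the one of its gene with the most half-sites. These highest counts did not separate the genes that were higher from Rara. For Nrip1, Rxra and Rara, another RefSeq start of the gene has a window with 0 half-sites. The Rarb window spans chr14:16575427-16575726 on the minus strand, the Nrip1 window chr16:76373778-76374077 on the minus strand, the Rxra window chr2:27709042-27709341 on the plus strand, and the Rara window chr11:98939461-98939760 on the plus strand. Each is written 5′ to 3′ along the gene, and capitals mark the half-sites.
Rarb: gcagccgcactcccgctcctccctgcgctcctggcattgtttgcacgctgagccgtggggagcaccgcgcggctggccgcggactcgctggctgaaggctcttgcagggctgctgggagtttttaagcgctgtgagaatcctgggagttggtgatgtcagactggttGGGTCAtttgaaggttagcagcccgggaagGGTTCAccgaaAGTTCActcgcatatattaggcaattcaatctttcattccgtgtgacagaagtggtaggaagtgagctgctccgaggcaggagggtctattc
Nrip1: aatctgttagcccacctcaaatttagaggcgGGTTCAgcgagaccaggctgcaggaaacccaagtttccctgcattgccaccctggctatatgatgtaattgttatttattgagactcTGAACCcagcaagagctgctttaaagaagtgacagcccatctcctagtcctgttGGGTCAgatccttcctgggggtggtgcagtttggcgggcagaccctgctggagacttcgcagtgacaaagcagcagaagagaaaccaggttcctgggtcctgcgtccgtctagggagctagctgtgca
Rxra: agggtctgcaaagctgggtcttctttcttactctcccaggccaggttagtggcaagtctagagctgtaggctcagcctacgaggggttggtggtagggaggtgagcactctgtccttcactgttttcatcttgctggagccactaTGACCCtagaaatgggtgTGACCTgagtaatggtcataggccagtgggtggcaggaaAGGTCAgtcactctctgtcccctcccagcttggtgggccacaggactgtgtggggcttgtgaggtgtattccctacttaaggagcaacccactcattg
Rara: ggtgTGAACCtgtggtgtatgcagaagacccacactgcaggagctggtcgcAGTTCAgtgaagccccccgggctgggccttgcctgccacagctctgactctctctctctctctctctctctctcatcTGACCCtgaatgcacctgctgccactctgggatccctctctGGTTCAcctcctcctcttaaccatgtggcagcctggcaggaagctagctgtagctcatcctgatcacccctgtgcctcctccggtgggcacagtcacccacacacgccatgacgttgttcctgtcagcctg

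Coordinates of genes given with the values are those of mm9 in the files. Levels are RPKM, reads per kilobase of gene, scaled to library depth, so genes can be set side by side within a library. The files give no read counts. Relative depth, read roughly off the steps between low RPKM values and set to 1 in replicate 1 of untreated wild type, was 0.955 to 1.24 in the replicate 1 libraries and 0.435 to 0.574 in the replicate 2 libraries. RPKM summed to between 509341 and 554854 in the RA-treated libraries and between 748556 and 822877 in the untreated ones. Ehmt1 RNA was 13.0 and 13.9 RPKM in RA-treated GLP 3A cells, 14.1 and 14.3 in untreated GLP 3A cells, 24.4 and 23.5 in wild type with RA, and 18.4 and 17.6 in untreated wild type. GLP 3A cells were therefore lower than wild type in every library, with RA (log2 difference -0.79 ± 0.07, moderated SE, adjusted p = 0.00410) and untreated (-0.32 ± 0.07, adjusted p = 0.0334). The untreated call was lost when either untreated library of either genotype was left out (adjusted p from 0.147 to 0.204), and the call with RA when only the 4 libraries compared were fitted (adjusted p = 0.144). RNA level does not test for the mutation itself.

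Markers of cell identity differed widely between RA-treated and untreated cells in both genotypes. The 8 markers of embryonic stem cells, such as Pou5f1 and Nanog, summed to 67.4 to 94.5 RPKM in RA-treated GLP 3A cells and 2555 to 2668 in untreated ones. In wild type the same sum was 61.3 to 75.0 with RA and 3008 to 3031 untreated. The 9 fibroblast markers summed to 82.0 to 124 RPKM in RA-treated GLP 3A cells and 4.74 to 6.19 in untreated ones, and to 106 to 110 and 4.51 to 5.04 in wild type with RA and untreated. Lum, a marker of fibroblasts, was at 0 in all 4 untreated libraries. Thy1, the highest of the 9 in untreated cells, went the other way from the sum. It was at 0.866 to 1.36 RPKM over the 4 RA-treated libraries against 3.17 to 3.46 over the 4 untreated ones. The 8 endoderm markers summed to 43.8 to 81.0 and 5.97 to 6.21 RPKM in GLP 3A cells with RA and untreated, and to 69.8 to 227 and 8.64 to 8.67 in wild type. The 8 trophoblast markers summed to 911 to 1511 and 94.5 to 95.2 RPKM in GLP 3A cells with RA and untreated, and to 726 to 783 and 51.6 to 53.2 in wild type. With RA the keratin genes Krt8 and Krt18 held most of this sum, while Tfap2c, the highest of the 8 in untreated cells, went the other way, at 9.21 and 6.63 RPKM in RA-treated GLP 3A cells against 52.4 and 48.7 in untreated ones, and 4.29 and 2.39 in wild type with RA against 28.8 and 28.9 untreated. Of 7 neural markers 6 were in the files, with sums of 62.0 to 73.6 and 45.4 to 48.8 RPKM in GLP 3A cells with RA and untreated, and 70.4 to 86.0 and 26.6 to 27.7 in wild type. These too went both ways, with Nes at 28.1 to 39.2 RPKM over the 4 RA-treated libraries against 1.08 to 3.40 over the 4 untreated ones, and Tubb3 at 11.2 to 14.9 against 23.6 to 44.2. In such bulk samples, a change in which cells are present and a change of RNA per cell cannot be told apart, and the part of these shifts in the results below was not tested.

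With RA the set split into genes that were higher, lower and not called, the same ones in both genotypes. Differences were tested with limma on log2(RPKM + 1), so that folds of low genes are understated, and the threshold for a call was an adjusted p of 0.05 over 13198 genes. In GLP 3A cells 6 of the 8 genes tested were called, against 70.4% of all genes tested. In wild type 6 of 8 were called, against 68.5% of all genes tested. In each genotype 3 were higher (Rarb, Nrip1 and Rxra) and 3 lower (Rarg, Ncoa3 and Ncor1), where 32.3% of all genes were called higher and 38.1% lower in GLP 3A cells, and 33.7% and 34.8% in wild type. These shares lie near the background, so the number called is not particular to the set. The groups did not overlap for 7 of 9 genes in GLP 3A cells and 8 of 9 in wild type, against 84.8% and 85.7% of all genes tested. Rxrg, which is counted in these 7 and 8, did not reach the filter of 1 RPKM in 2 libraries and was not tested.

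**Figure D1:**
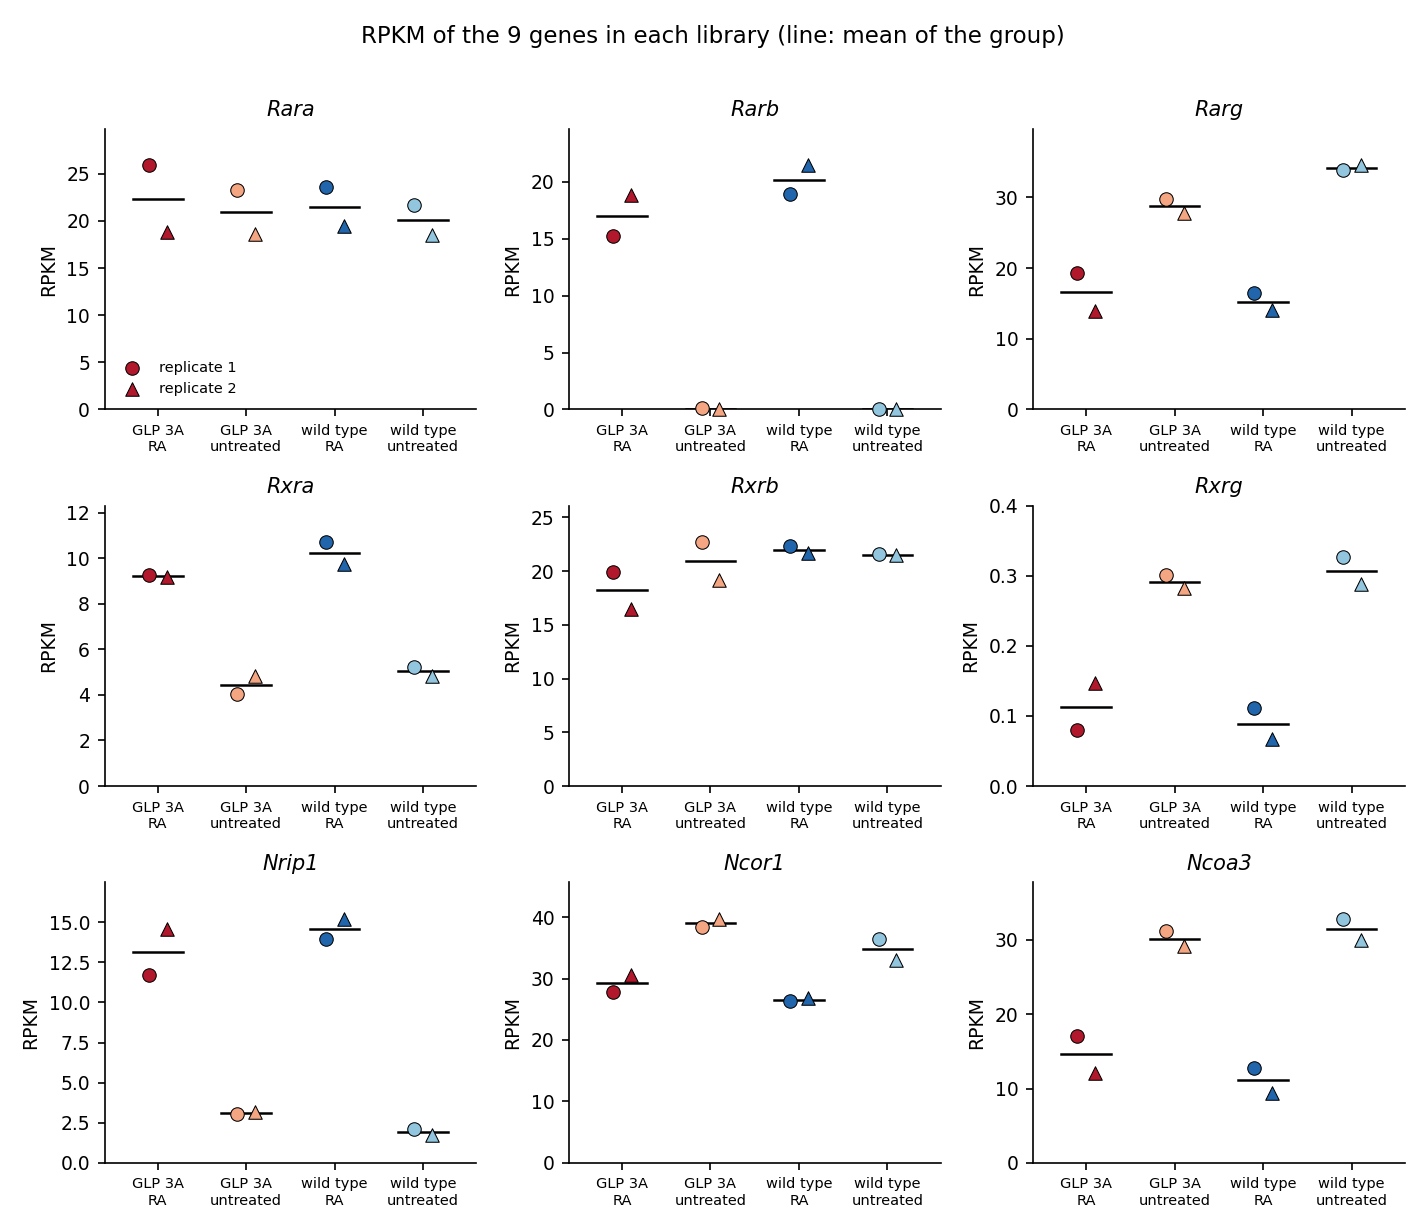
RPKM of the 9 genes in each library, with circles for replicate 1, triangles for replicate 2 and a line at the group mean; each panel has its own scale from 0. Rarb, Nrip1 and Rxra are higher in the RA-treated groups of both genotypes, Rarg, Ncoa3 and Ncor1 are lower, and Rxrg stays under 0.4 RPKM in every library.

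Among the receptors for RA, Rarb (mm9 chr14:17263353-17407724) had 15.3 and 18.8 RPKM in RA-treated GLP 3A cells and 0.0845 and 0 in untreated GLP 3A cells. Wild type had 18.9 and 21.4 RPKM with RA and 0.0340 and 0 untreated. The untreated values are at the lowest levels the libraries can hold, so no fold is given, and Rarb passed the filter only through its RA-treated libraries, so it had to differ. On the log2(RPKM + 1) scale the difference was 4.11 ± 0.13 (moderated SE, adjusted p = 5.49e-06) in GLP 3A cells and 4.38 ± 0.13 (adjusted p = 3.79e-06) in wild type. In RA-treated wild type the ranges of Rarb and Rara overlapped, and in RA-treated GLP 3A cells the highest Rarb library and the lowest Rara library both stood at 18.8 RPKM.

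Rarg (chr15:102065370-102087914), the RAR gene with the highest level in untreated cells of both genotypes, fell with RA. It had 19.3 and 14.0 RPKM in RA-treated GLP 3A cells, against 29.8 and 27.8 in untreated GLP 3A cells. Wild-type cells had 16.5 and 14.1 RPKM with RA, against 33.8 and 34.5 untreated. All 4 RA-treated libraries lay under all 4 untreated ones. The mean with RA was 0.577 of the untreated mean in GLP 3A cells (log2 difference -0.77 ± 0.15, adjusted p = 0.00399) and 0.447 in wild type (-1.12 ± 0.15, adjusted p = 0.000838).

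Rara (chr11:98799009-98836256), which encodes the RAR present in most cell types, was not called. Its values were 25.9 and 18.8 RPKM in RA-treated GLP 3A cells, 23.3 and 18.6 in untreated GLP 3A cells, 23.6 and 19.5 in wild type with RA, and 21.7 and 18.5 in untreated wild type. Replicate 1 was the higher library in each group, by more than any group mean differed from another. The log2 difference of RA from untreated was 0.084 (95% interval -0.37 to 0.54) in GLP 3A cells and 0.091 (-0.37 to 0.55) in wild type, with adjusted p of 0.714 and 0.694.

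The RXR genes encode the shared partner of RAR and of several other nuclear receptors. Rxra (chr2:27532720-27618839) had 9.26 and 9.18 RPKM in RA-treated GLP 3A cells and 4.02 and 4.81 in untreated GLP 3A cells. Wild type had 10.7 and 9.76 RPKM with RA and 5.24 and 4.81 untreated. The groups did not overlap, and the RA-treated mean was 2.09 times the untreated mean in GLP 3A cells (log2 difference 0.92 ± 0.10, adjusted p = 0.000307) and 2.03 times in wild type (0.90 ± 0.10, adjusted p = 0.000366).

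Rxrb (chr17:34168756-34175348) was the most abundant RXR gene in all 8 libraries. Its values were 20.0 and 16.5 RPKM in RA-treated GLP 3A cells, 22.7 and 19.2 in untreated GLP 3A cells, 22.3 and 21.7 in wild type with RA, and 21.6 and 21.5 in untreated wild type. The log2 difference of RA from untreated was -0.19 (95% interval -0.47 to 0.086, adjusted p = 0.178) in GLP 3A cells, where the groups overlapped. Without replicate 1 of RA-treated GLP 3A cells it was -0.32 and called (adjusted p = 0.0442, in a range of 0.0442 to 0.669 over 18 other settings). In wild type it was 0.028 (-0.25 to 0.31, adjusted p = 0.849). Rxrg (chr1:169528492-169569754), the RXR form known from muscle and brain, had 0.0804 and 0.146 RPKM in RA-treated GLP 3A cells, 0.300 and 0.283 in untreated GLP 3A cells, 0.112 and 0.0667 in wild type with RA, and 0.326 and 0.289 in untreated wild type. The RA-treated libraries of Rxrg lay under the untreated ones, at levels that rest on few reads.

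Of the cofactors, Nrip1 (chr16:76291106-76373294) had the largest fold. It reached 11.7 and 14.6 RPKM in RA-treated GLP 3A cells, against 3.07 and 3.14 in untreated GLP 3A cells, and 14.0 and 15.2 RPKM in RA-treated wild type, against 2.13 and 1.73 in untreated wild type. All RA-treated libraries lay above all untreated ones. The mean with RA was 4.23 times the untreated mean in GLP 3A cells (log2 difference 1.78 ± 0.13, adjusted p = 5.90e-05) and 7.57 times in wild type (2.41 ± 0.13, adjusted p = 1.99e-05).

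Ncoa3 (chr2:165818136-165898742), whose protein is also known in mouse embryonic stem cells as a coactivator of ESRRB, moved the other way. It had 17.1 and 12.1 RPKM in RA-treated GLP 3A cells, against 31.2 and 29.1 in untreated GLP 3A cells. Wild type had 12.8 and 9.45 RPKM with RA, against 32.8 and 30.0 untreated. The RA-treated mean was 0.485 of the untreated mean in GLP 3A cells (log2 difference -1.01 ± 0.19, adjusted p = 0.00311) and 0.354 in wild type (-1.43 ± 0.19, adjusted p = 0.000716).

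Ncor1 (chr11:62094974-62270834) fell in both genotypes. Its values were 27.8 and 30.6 RPKM in RA-treated GLP 3A cells, against 38.3 and 39.7 in untreated GLP 3A cells, and 26.3 and 26.8 in RA-treated wild type, against 36.5 and 33.1 in untreated wild type. The groups did not overlap. The log2 difference was -0.41 ± 0.08 (adjusted p = 0.00379) in GLP 3A cells and -0.38 ± 0.08 (adjusted p = 0.00562) in wild type. After quantile normalization it was -0.14 in GLP 3A cells and no longer called (adjusted p = 0.147, in a range of 0.00347 to 0.147 over 18 other settings). The files place Ttc19 at the same locus as Ncor1, and reads could be split between them. Ttc19, a gene for a mitochondrial protein, had 9.55 and 9.87 RPKM in RA-treated GLP 3A cells, 9.29 and 8.69 in untreated GLP 3A cells, 6.59 and 7.07 in wild type with RA, and 7.5 and 7.43 in untreated wild type.

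**Figure D2:**
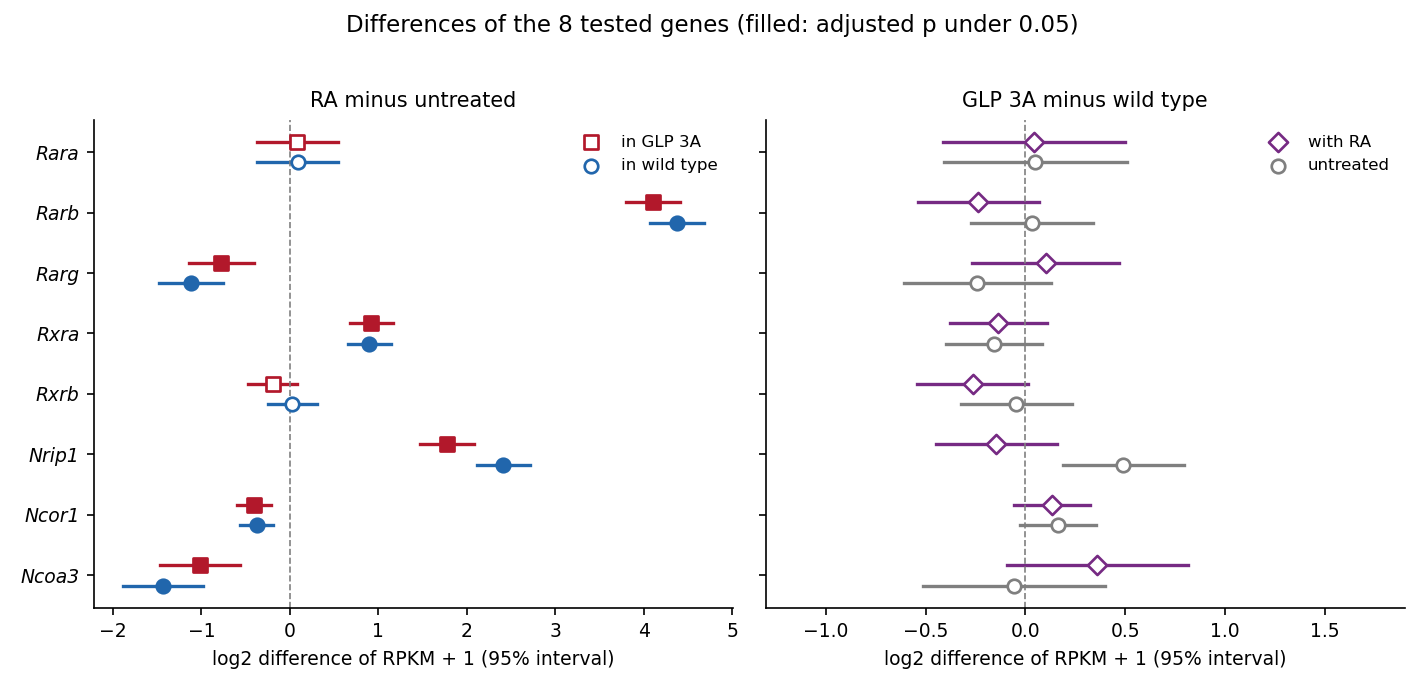
Log2 differences of RPKM + 1 for the 8 tested genes with 95% intervals from the moderated fit, RA minus untreated on the left and GLP 3A minus wild type on the right; filled symbols have an adjusted p under 0.05. On the left 6 genes are called in both genotypes, led by Rarb at 4.11 and 4.38, while on the right 0 of 8 are called in either state and Nrip1 in untreated cells is the farthest from 0.

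No gene of the set was called between the genotypes. Untreated, limma called 0 of 8 between GLP 3A and wild type, against 11.7% of all genes tested. An unadjusted p under 0.05 was found for 1 of the 8, and for 3740 of all 13198 genes tested. With RA, limma called 0 of 8, against 10.6% of all genes tested. An unadjusted p under 0.05 was found for 0 of the 8, and for 3858 of all 13198 genes tested. The groups did not overlap for 3 of 9 genes untreated, against 68% of all genes tested, and for 4 of 9 with RA, against 51.3%. The 9 include Rxrg, which was not tested and whose groups overlapped in both states. Rarb, Rxra, Rxrb and Ncor1 were the genes whose groups did not overlap with RA, and their log2 differences were -0.24, -0.13, -0.26 and 0.13, with adjusted p from 0.187 to 0.415.

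Nrip1 came nearest to a difference between genotypes in untreated cells. Its 3.07 and 3.14 RPKM in untreated GLP 3A cells lay above the 2.13 and 1.73 of untreated wild type, a ratio of means of 1.61 (log2 difference 0.49 ± 0.13, 95% interval 0.19 to 0.79, adjusted p = 0.0555 with limma). The direction held in all 18 other settings, and 6 of them called it, with adjusted p from 0.0257 to 0.266 over all 18. Those 6 were pseudocounts of 0.1 (0.67, adjusted p = 0.0383) and 0.5 (0.58, adjusted p = 0.0458), robust empirical Bayes (adjusted p = 0.0455), a fit of only the 4 libraries compared (adjusted p = 0.0309), and leaving out replicate 1 or 2 of RA-treated GLP 3A cells (adjusted p = 0.0260 and 0.0257). With RA the order was the other way round and the groups overlapped, at -0.15 (-0.45 to 0.16, adjusted p = 0.479).

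Accordingly the RA response of Nrip1 was smaller in GLP 3A cells than in wild type, but not by a margin that was called. The interaction was -0.64 ± 0.18 on the log2(RPKM + 1) scale (95% interval -1.07 to -0.21, adjusted p = 0.119). Without replicate 2 of RA-treated GLP 3A cells it was -0.79 and called (adjusted p = 0.0393, in a range of 0.0393 to 0.349 over 17 other settings). Nrip1 was the 1 gene of the 8 with an unadjusted p under 0.05 for this difference, against 2764 of all 13198 genes tested. By limma 0 of 8 were called for it, against 1.8% of all genes tested. The 8 tested genes within 5 Mb of Nrip1 had a median interaction of -0.29, and all genes of chromosome 16 one of -0.065.

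Rarg showed a smaller difference in untreated cells. Its 29.8 and 27.8 RPKM in untreated GLP 3A cells lay under the 33.8 and 34.5 of untreated wild type (log2 difference -0.24 ± 0.15, 95% interval -0.61 to 0.13, adjusted p = 0.361). Only the fit of the 4 libraries compared called it (adjusted p = 0.0423, in a range of 0.0423 to 0.698 over 18 other settings). The fall of Rarg and of Ncoa3 with RA was smaller in size in GLP 3A cells, with interactions of 0.34 ± 0.21 (95% interval -0.18 to 0.86, adjusted p = 0.415) and 0.42 ± 0.26 (-0.22 to 1.06, adjusted p = 0.421), neither of which was called. For Rara, Rxra and Ncor1 the interactions lay between -0.031 and 0.023, with intervals that reach 0.65 in size for Rara, 0.37 for Rxra and 0.30 for Ncor1.

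Position gave a context for these small differences. Genes of chromosome 11, which carries Rara and Ncor1, had a median log2 difference of GLP 3A from wild type of 0.24 both with RA and untreated, and genes of chromosome 1, which carries Rxrg, one of -0.31 with RA and -0.24 untreated. Ncor1 differed by 0.13 with RA and 0.16 untreated, and Rara by 0.043 and 0.050, all under the median of their chromosome. Rxra lies 2.87 Mb from Ehmt1 on chromosome 2. The 162 tested genes within 5 Mb of Rxra had medians of -0.061 with RA and 0.012 untreated, beside -0.13 and -0.16 for Rxra itself.

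Set side by side, the RAR genes differed in make-up between RA-treated and untreated libraries. The sum of Rara, Rarb and Rarg was 60.4 and 51.6 RPKM in RA-treated GLP 3A cells, 53.2 and 46.3 in untreated GLP 3A cells, 58.9 and 55 in wild type with RA, and 55.6 and 53.0 in untreated wild type. The RA-treated and untreated libraries of both genotypes overlapped in this sum, although each RA-treated library lay above the untreated one of the same genotype and replicate number. Rarg made up 31.9% and 27.0% of it in RA-treated GLP 3A cells, against 56.1% and 59.9% in untreated GLP 3A cells, and 28% and 25.6% in RA-treated wild type, against 60.8% and 65.1% in untreated wild type. Rarb made up 25.2% and 36.5% in RA-treated GLP 3A cells and 32.1% and 39.0% in RA-treated wild type, against at most 0.159% in any untreated library. Rara kept 34.9% to 43.8% throughout.

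The RXR total was lower than the RAR total in every library. It was 29.3 and 25.8 RPKM in RA-treated GLP 3A cells, 27.0 and 24.3 in untreated GLP 3A cells, 33.1 and 31.5 in wild type with RA, and 27.2 and 26.6 in untreated wild type. Rxra supplied 31.6% and 35.6% of it in RA-treated GLP 3A cells, against 14.9% and 19.8% in untreated GLP 3A cells, and 32.3% and 31.0% in RA-treated wild type, against 19.3% and 18.1% in untreated wild type. There were 2.06 and 2.00 RAR transcripts per RXR transcript, by RPKM, in RA-treated GLP 3A cells, 1.97 and 1.91 in untreated GLP 3A cells, 1.78 and 1.75 in wild type with RA, and 2.05 and 1.99 in untreated wild type. RA-treated wild type was thus the lowest of the 4 groups in this ratio.

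The ratio of Ncor1 to Ncoa3, 1 corepressor gene and 1 coactivator gene of the same receptors, was higher with RA in both genotypes. The ratio of their RPKM was 1.63 and 2.52 in RA-treated GLP 3A cells, 1.23 and 1.36 in untreated GLP 3A cells, 2.05 and 2.83 in wild type with RA, and 1.11 and 1.10 in untreated wild type. Within each genotype the RA-treated and untreated libraries did not overlap, and the genotypes overlapped with RA but not untreated. The ratio holds for this pair only, since Ncoa2, a p160 relative of Ncoa3, rose with RA (log2 differences 0.71 in GLP 3A cells and 1.11 in wild type). These sums and ratios were not tested.

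**Figure D3:**
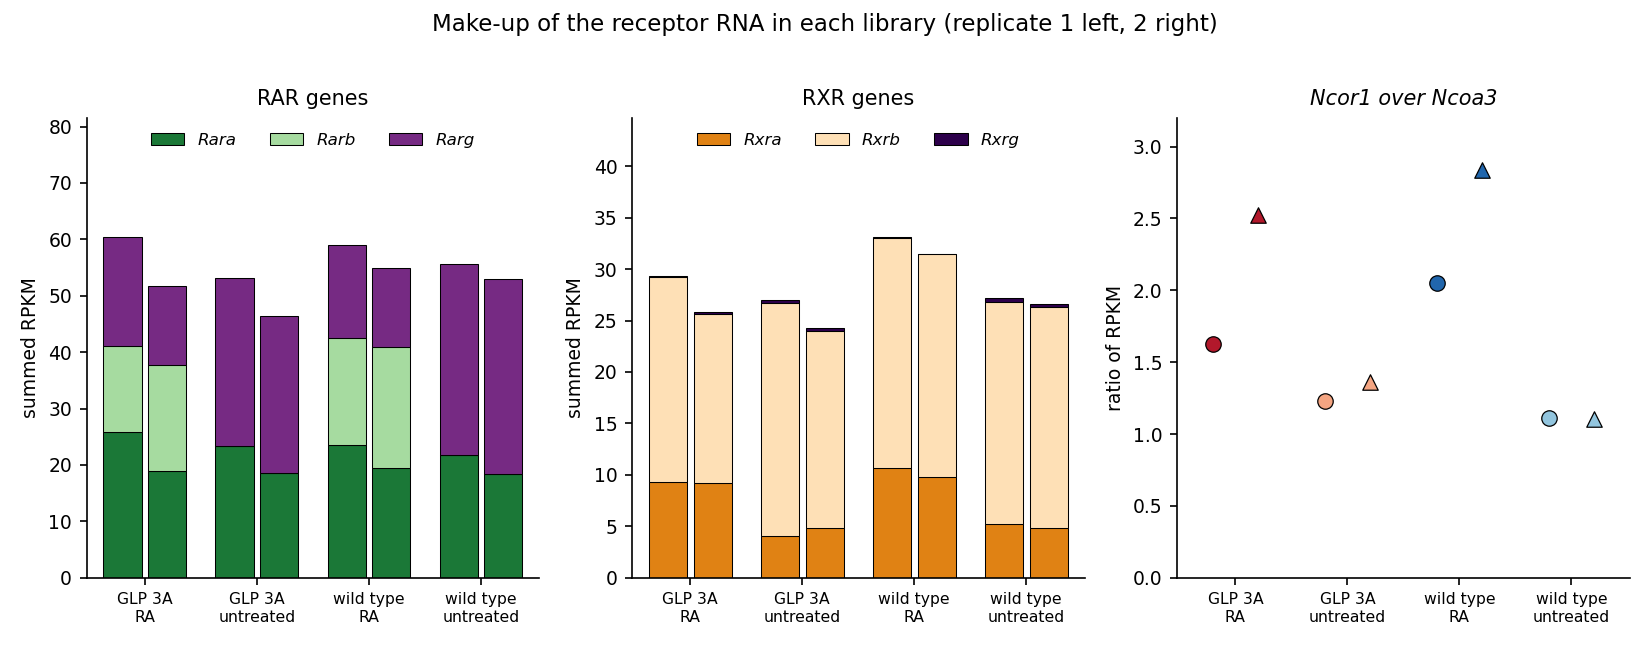
Summed RPKM of the RAR genes (left) and RXR genes (middle) in each library, stacked by gene, and the ratio of Ncor1 to Ncoa3 RPKM (right); replicate 1 is left of replicate 2 in each group. With RA, Rarg makes up 25.6% to 31.9% of RAR RPKM and Rarb 25.2% to 39.0%, while the totals of RA-treated and untreated libraries overlap for the RAR genes, each RA-treated one above the untreated one of the same number.

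The order of levels differed between the states. In untreated wild type Ncor1 and Rarg shared the top with overlapping ranges, followed by Ncoa3, by Rxrb and Rara with overlapping ranges, and then by Rxra, Nrip1, Rxrg and Rarb, each apart from its neighbour. In untreated GLP 3A cells Ncor1 stood alone at the top, Ncoa3 and Rarg overlapped, and the rest had the same order. With RA Ncor1 remained first in both genotypes. In RA-treated GLP 3A cells the 6 genes from Rara through Rxrb, Rarb, Rarg and Ncoa3 to Nrip1 each overlapped with the next, and Rxra and Rxrg lay under them. RA-treated wild type had Rxrb, Rara and Rarb as one overlapping run, Rarg and Nrip1 as another, and Ncoa3 and Rxra as the last, above Rxrg.

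The RA-treated replicates differed in a shared direction. Rarg, Ncoa3, Rara, Rxra and Rxrb were higher in replicate 1 than in replicate 2 of RA-treated cells in both genotypes, and Rarb, Nrip1 and Ncor1 were lower. Pou5f1, which encodes a core factor of self-renewal, was 27.7 and 10.7 RPKM in replicates 1 and 2 of RA-treated GLP 3A cells and 14.5 and 2.20 in those of RA-treated wild type. Sox2, another stem cell marker, went the other way, at 21.4 and 35.4 RPKM in RA-treated GLP 3A cells and 38.3 and 47.2 in RA-treated wild type. Of the 8 stem cell markers, all but Sox2 were higher in replicate 1 than in replicate 2 of RA-treated GLP 3A cells. In RA-treated wild type all but Sox2 and Tdgf1 were, with Tdgf1 at 0.552 and 0.674 RPKM. Replicate 1 was also the deeper library. The part of these measures in the replicate differences was not tested.

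Other genes of the pathway were grouped into 5 lists. The first holds RA supply and target genes, which make, carry, degrade or answer to RA. Of its 20 genes 19 were tested, and 10 of these passed the filter only through RA-treated libraries, among them Cyp26a1, Hoxb1 and Stra8, so that the filter itself selected for a rise with RA, and the counts and medians are given as a description. In GLP 3A cells 15 were higher with RA, 0 lower and 4 not called, against 70.4% of all genes called, with a median log2 difference of 4.07 against -0.070 over all genes tested. In wild type 16 were higher, 1 lower and 2 not called, against 68.5% of all genes called, with a median of 4.08 against -0.031. Cyp26a1 had 185 and 126 RPKM in RA-treated GLP 3A cells, 0.244 and 0.612 in untreated GLP 3A cells, 218 and 125 in wild type with RA, and 0.0847 and 0.131 in untreated wild type. It is among the 10, and its log2 difference was 6.76 ± 0.30 (adjusted p = 1.33e-05) in GLP 3A cells and 7.23 ± 0.30 (adjusted p = 1.01e-05) in wild type. Stra8, a gene that RA induces in germ cells before meiosis, differed by 6.04 ± 0.24 in GLP 3A cells. In wild type Stra8 had 29.3 and 24.3 RPKM with RA against 0.229 and 0.325 untreated. Crabp2, which encodes a protein that carries RA to the nucleus, differed by 6.63 ± 0.37 in wild type. In GLP 3A cells Crabp2 had 147 and 355 RPKM with RA against 6.74 and 5.97 untreated. Cdx1, a homeobox gene and known RA target, was the 1 that fell in wild type (-2.77 ± 0.52, adjusted p = 0.00344), with 3.96 and 2.39 RPKM with RA against 25.9 and 27.9 untreated.

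Between the genotypes with RA, 4 of these 19 genes were called, against 10.6% of all genes tested. Stra8 had 118 and 69.2 RPKM in RA-treated GLP 3A cells and 29.3 and 24.3 in RA-treated wild type (log2 difference 1.72 ± 0.24, adjusted p = 0.0147). Hoxb1, a hindbrain Hox gene, had 36.7 and 37.6 RPKM in RA-treated GLP 3A cells and 21.3 and 18.8 in RA-treated wild type (0.86 ± 0.09, adjusted p = 0.00644). Hoxb1 lies on chromosome 11, whose genes had a median of 0.24 for this difference. Crabp1, which encodes a cytoplasmic RA binding protein, had 10.7 and 28.5 RPKM in RA-treated GLP 3A cells and 183 and 155 in RA-treated wild type (-3.19 ± 0.39, adjusted p = 0.0112). Rdh10, which encodes an enzyme that makes the precursor of RA, had 15.9 and 19.2 RPKM in RA-treated GLP 3A cells and 44.2 and 47.9 in RA-treated wild type (-1.35 ± 0.10, adjusted p = 0.00281). Stra8, Crabp1 and Rdh10 were not set beside the medians of their own chromosomes. Stra8 lost its call without replicate 1 or 2 of RA-treated wild type (adjusted p = 0.0545 and 0.0637) and Crabp1 without replicate 1 (adjusted p = 0.0560), and all 4 did when only the 4 libraries compared were fitted (adjusted p from 0.10 to 0.176). Untreated, 0 of 19 were called between the genotypes by limma, against 11.7% of all genes tested. An unadjusted p under 0.05 was found for 2 of the 19, and for 3740 of all 13198 genes tested.

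The orphan receptors, nuclear receptors with no agreed ligand of which several bind the same repeats, were called in both directions. In each genotype 5 of 8 were higher with RA, 2 lower and 1 not called, against 70.4% of all genes called in GLP 3A cells and 68.5% in wild type, with a median of 0.94 in GLP 3A cells and 0.90 in wild type. Nr2f1 and Nr2f2 passed the filter only through RA-treated libraries, and Nr0b1 and Nr5a2 only through untreated ones, so the direction of these 4 was fixed by the filter. Nr2f1, which encodes COUP-TFI, had 13.1 and 30.6 RPKM in RA-treated GLP 3A cells, 0.0530 and 0.0872 in untreated GLP 3A cells, 30.6 and 40.5 in wild type with RA, and 0.0913 and 0.0452 in untreated wild type (log2 differences 4.3 ± 0.35 in GLP 3A cells and 5.08 ± 0.35 in wild type). Nr2f2, its close relative, differed by 4.34 ± 0.33 and 4.82 ± 0.33. Nr0b1, which encodes DAX1, a receptor of stem cells, had 0.894 and 0.352 RPKM in RA-treated GLP 3A cells, 55.9 and 52.8 in untreated GLP 3A cells, 0.253 and 0.15 in wild type with RA, and 63.5 and 70.2 in untreated wild type (-5.11 ± 0.16 and -5.82 ± 0.16). Nr5a2, which encodes the stem cell receptor LRH-1, also fell (-4.00 ± 0.11 and -4.56 ± 0.11).

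Nr5a2 with RA and Nr2f6 untreated were the 2 orphan receptors called between genotypes, 1 of 8 in each state, against 10.6% of all genes with RA and 11.7% untreated. Nr5a2 had 0.932 and 0.590 RPKM in RA-treated GLP 3A cells and 0.119 and 0.102 in RA-treated wild type (log2 difference 0.66 ± 0.11, adjusted p = 0.0228). These values all lie under the filter of 1 RPKM, which Nr5a2 passed only through untreated libraries. Its difference ranged from 0.40 to 2.00 over 18 other settings. Of its 18 other settings 9 called it, and those that did not include each one that left out a library of RA-treated wild type or of untreated cells (adjusted p from 0.0627 to 0.0832). Nr2f6, a relative of Nr2f1, had 18.9 and 15.5 RPKM in untreated GLP 3A cells and 11.3 and 12 in untreated wild type (0.52 ± 0.10, adjusted p = 0.0232). Its call was lost without replicate 1 of untreated GLP 3A cells (0.39, adjusted p = 0.12) and without replicate 1 or 2 of untreated wild type (adjusted p = 0.154 and 0.113).

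Among 12 genes of corepressor complexes, 2 were higher with RA, 6 lower and 4 not called in GLP 3A cells, and 4 were higher, 3 lower and 5 not called in wild type, against 70.4% and 68.5% of all genes called. The medians were -0.22 in GLP 3A cells and 0.028 in wild type, against -0.070 and -0.031 over all genes tested, and the number called is not particular to the list. Ctbp2 and Ctbp1, paralogous corepressor genes, moved in opposite directions. Ctbp2 had 20.3 and 20.9 RPKM in RA-treated GLP 3A cells, 73.9 and 69.6 in untreated GLP 3A cells, 21.6 and 22.5 in wild type with RA, and 84.2 and 79.1 in untreated wild type (log2 differences -1.75 ± 0.07 in GLP 3A cells and -1.84 ± 0.07 in wild type). Ctbp1 had 54.6 and 55.9 RPKM in RA-treated GLP 3A cells, 39.1 and 33.1 in untreated GLP 3A cells, 64.9 and 63.8 in wild type with RA, and 36.5 and 34.0 in untreated wild type (0.61 ± 0.09 and 0.85 ± 0.09). Sin3a, the scaffold of a deacetylase complex, fell by similar amounts (-1.06 ± 0.12 in GLP 3A cells and -1.04 ± 0.12 in wild type). Lcor, a corepressor gene of liganded receptors, rose in wild type (0.73 ± 0.14, adjusted p = 0.00385), a call lost under quantile normalization (0.35, adjusted p = 0.0582). Gps2, which encodes a subunit of the NCOR complex, rose in GLP 3A cells (0.44 ± 0.12, adjusted p = 0.0135), a call lost without replicate 2 of RA-treated GLP 3A cells or without either untreated GLP 3A library (adjusted p from 0.0585 to 0.0594). The rise of Gps2 was not particular to GLP 3A cells, since wild type had 30.4 and 38.3 RPKM with RA against 20.4 and 20.8 untreated. Between the genotypes 0 of 12 were called in either state by limma, against 10.6% of all genes tested with RA and 11.7% untreated. An unadjusted p under 0.05 was found for 2 with RA and 3 untreated, against 3858 and 3740 of all 13198 genes tested.

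Among 12 coactivator genes 11 were tested, of which Ppargc1b passed the filter only through untreated libraries. In GLP 3A cells 3 were higher with RA, 6 lower and 2 not called, and in wild type 1 was higher, 6 lower and 4 not called, against 70.4% and 68.5% of all genes called, with medians of -0.41 in GLP 3A cells and -0.27 in wild type. Ncoa2, a p160 relative of Ncoa3, moved opposite to it, with 9.61 and 9.88 RPKM in RA-treated GLP 3A cells, 5.42 and 5.68 in untreated GLP 3A cells, 12.3 and 12.4 in wild type with RA, and 5.27 and 5.11 in untreated wild type (log2 differences 0.71 ± 0.07 in GLP 3A cells and 1.11 ± 0.07 in wild type). Kat2b, an acetyltransferase gene, fell (-1.43 ± 0.08 in GLP 3A cells and -1.92 ± 0.08 in wild type), as did its paralogue Kat2a (-0.91 ± 0.08 and -0.74 ± 0.08). Ncoa6 rose in GLP 3A cells (0.53 ± 0.09, adjusted p = 0.00227). Between the genotypes with RA, 3 of 11 were called by limma, against 10.6% of all genes tested. Kat2b (0.50 ± 0.08, adjusted p = 0.0205) and Med1 (0.31 ± 0.07, adjusted p = 0.0430), which encodes a Mediator subunit, were higher in GLP 3A cells, and Ncoa2 (-0.31 ± 0.07, adjusted p = 0.0404) was lower. Over chromosomes 1 and 11 the same difference had medians of -0.31 and 0.24. These 3 genes were not set beside the medians of their own chromosomes. Leaving out any 1 library of RA-treated wild type or of untreated cells ended all 3 calls, with adjusted p from 0.0552 to 0.130. The fit of only the 4 libraries compared ended all 3 as well (adjusted p from 0.208 to 0.249). Med1 also lost its call without either RA-treated GLP 3A library (adjusted p = 0.0678 and 0.0737), with the replicate block (adjusted p = 0.0511), with no filter (adjusted p = 0.0531) and with no intensity trend (adjusted p = 0.0540), and Ncoa2 without replicate 1 of that group (adjusted p = 0.0955). Untreated, limma called 0 of 11 between the genotypes, against 11.7% of all genes tested. An unadjusted p under 0.05 was found for 4 of the 11, and for 3740 of all 13198 genes tested.

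Of 13 other receptors that pair with RXR, 6 were tested and 7 did not reach the filter. With RA 1 was higher, 2 lower and 3 not called in GLP 3A cells, and 2 were higher, 2 lower and 2 not called in wild type, against 70.4% and 68.5% of all genes called, with medians of 0.19 and -0.10. Thra, the thyroid hormone receptor alpha gene, had 8.08 and 8.71 RPKM in RA-treated GLP 3A cells, 3.74 and 3.79 in untreated GLP 3A cells, 6.12 and 7.37 in wild type with RA, and 3.46 and 3.15 in untreated wild type (log2 differences 0.98 ± 0.10 in GLP 3A cells and 0.84 ± 0.10 in wild type). Nr1h2, which encodes the oxysterol receptor LXR beta, fell (-0.90 ± 0.08 in GLP 3A cells and -0.98 ± 0.08 in wild type), as did Nr4a1, a nuclear receptor gene of the immediate early kind (-0.86 ± 0.11 and -1.48 ± 0.11). Nr4a2 rose in wild type (0.92 ± 0.18, adjusted p = 0.00466), at 1.49 and 1.48 RPKM with RA and 0.379 and 0.248 untreated, but it passed the filter only through RA-treated libraries. Between the genotypes 0 of 6 were called in either state by limma, against 10.6% of all genes tested with RA and 11.7% untreated. An unadjusted p under 0.05 was found for 3 with RA and 1 untreated, against 3858 and 3740 of all 13198 genes tested.

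**Figure D4:**
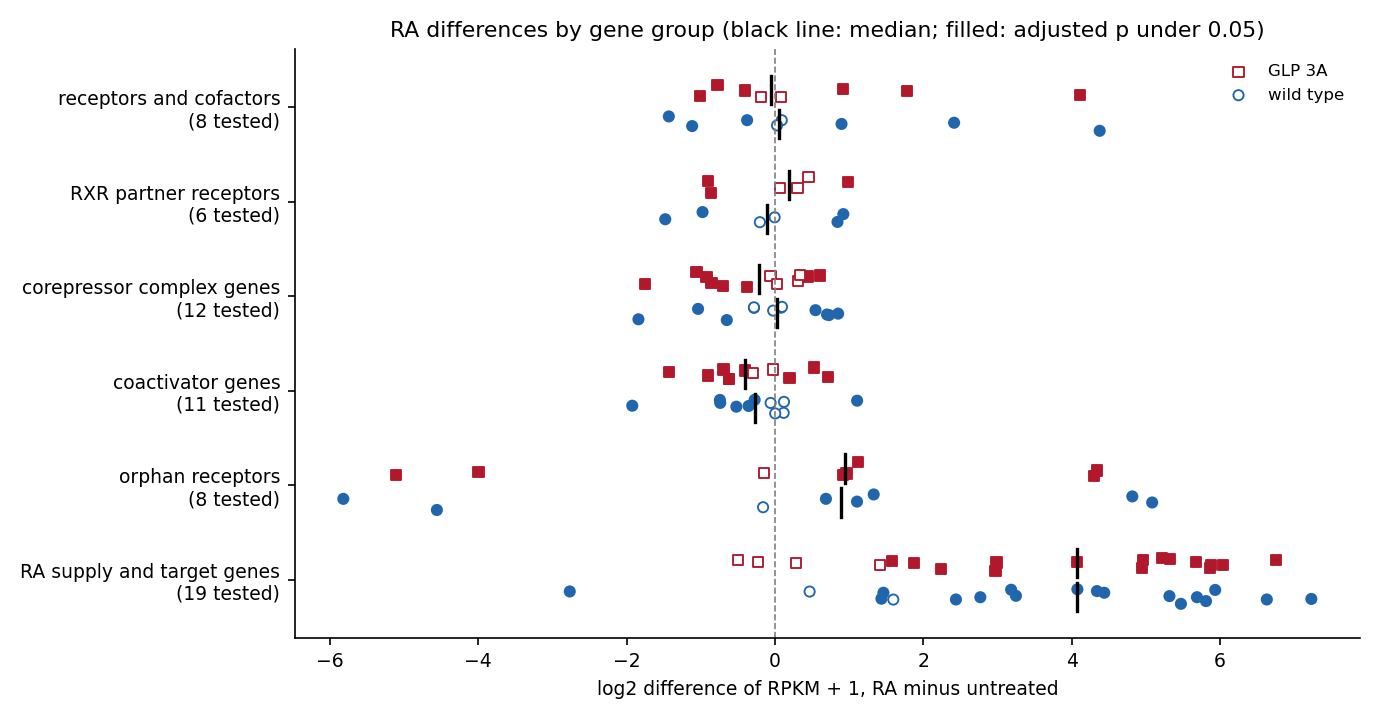
Log2 differences of RPKM + 1, RA minus untreated, for each tested gene of the set and of the 5 lists, squares for GLP 3A and circles for wild type; black lines are medians and filled symbols have an adjusted p under 0.05. The RA supply and target genes have medians of 4.07 in GLP 3A cells and 4.08 in wild type, and the other groups spread to both sides of 0.

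For the 4 genes with the largest RA difference in wild type, the genes with the most similar profile over the 8 libraries were sought among 11874 tested genes. Likeness was the root mean square difference between log2(RPKM + 1) profiles, each centred on its own mean, and the points share the same 8 libraries. For Rarb the profile is set by the pseudocount, since its untreated values are at or near 0, and its nearest genes (Mdk, Scarf2 and Col12a1) are named without a value and nothing is read from them. Nearest to Nrip1 were Usp25 (0.085), which also lies on chromosome 16, Akt1 (0.090) and Ttyh3 (0.092). Usp25 had 12.2 and 15.1 RPKM in RA-treated GLP 3A cells, 3.12 and 3.33 in untreated GLP 3A cells, 14.1 and 15.8 in wild type with RA, and 2.40 and 2.35 in untreated wild type. Tbc1d10b (0.081), B4galt6 (0.087) and Eps8 (0.092) were nearest to Ncoa3, and Uqcrc1 (0.055), Cnnm2 (0.076) and Mcf2l (0.078) to Rarg.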

How the data were processed

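The 8 single-end RNA-seq libraries, in 4 groups of 2, were analysed as RPKM values that the authors deposited for each gene symbol and its mm9 locus. Tools listed in the submitters' processing notes are TopHat, Cufflinks, SAMtools and Bowtie 0.12.7, and the build is mm9. Strandedness, and how overlapping genes shared reads, are not stated there. No counts are in the files, and differences of log2(RPKM + 1) were tested by limma 3.58.1 (R 4.3.3) with 4 group means, a trended empirical Bayes prior and Benjamini-Hochberg adjustment over the 13198 genes that reached 1 RPKM in 2 or more libraries. The tests were two-sided, the errors are moderated standard errors, and the model was checked on simulated data. Relative depth came from ratios of low RPKM values (at or under 0.15) matched to whole numbers up to 4 within 1.5%. At the best-matching depths 16.1% to 26.2% of ratios matched, against a median of 6.52% to 8.34% over all depths. The matching left a factor of 2 open. It was settled on 103 genes whose low values in replicate 1 libraries stood in whole-number steps. That choice lowered replicate 2 of untreated GLP 3A cells from 0.869 to 0.435. It lowered replicate 2 of untreated wild type from 1.00 to 0.500. These depths are therefore rough. The genes, lists and tests were chosen with earlier results of these data known. From each list, up to 2 called genes with the largest rise and 2 with the largest fall per comparison were named. The other settings were pseudocounts of 0.1 and 0.5, quantile and median-of-ratios scaling, no filter or one of 5 RPKM, no trend, a robust prior, a replicate block, fits of only the 4 libraries compared, and each library left out in turn. Chromosome positions of genes are those of mm9 in the files, and promoter windows those of RefSeq on GRCm38.p6, and the builds were not mixed.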

Additional observations from a re-analysis of the deposited data

Results flagged for a closer look

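Among the genes named here, 2 RA supply and target genes had RA responses that differed between the genotypes by the interaction test. The rise of Hoxb1 was larger in GLP 3A cells by 0.87 ± 0.12 on the log2(RPKM + 1) scale (adjusted p = 0.0344), with 36.7 and 37.6 RPKM in RA-treated GLP 3A cells, 0.0264 and 0.0284 in untreated GLP 3A cells, 21.3 and 18.8 in wild type with RA, and 0.050 and 0.0246 in untreated wild type. Hoxb1 passed the filter only through RA-treated libraries, and with its untreated values near 0 in both genotypes the interaction restates the difference of 0.86 between the genotypes with RA and is no separate evidence. Rdh10 rose less in GLP 3A cells, with an interaction of -1.31 ± 0.15 (adjusted p = 0.0207), and had 15.9 and 19.2 RPKM in RA-treated GLP 3A cells, 3.95 and 4.18 in untreated GLP 3A cells, 44.2 and 47.9 in wild type with RA, and 4.15 and 4.20 in untreated wild type. Leaving out either library of untreated GLP 3A, RA-treated wild type or untreated wild type ended both calls, with adjusted p from 0.0635 to 0.188 for Hoxb1 and from 0.0621 to 0.144 for Rdh10. Hoxb1 was also not called with a pseudocount of 0.1 (adjusted p = 0.0884) or with no filter (adjusted p = 0.0528). Over all other settings the adjusted p ranged from 0.0254 to 0.188 for Hoxb1 and from 0.00816 to 0.144 for Rdh10.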

How the results depend on the processing

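All RA differences of Rarb, Nrip1, Rxra, Rarg, Ncoa3 and Ncor1 kept their direction and their call in both genotypes under all 18 other settings, except Ncor1 in GLP 3A cells after quantile normalization (-0.14). For RA in wild type with no filter, 9 genes of the set were tested and 7 called, 4 of them lower. The added call was that of Rxrg, whose levels rest on few reads. The count of genes of the set called between GLP 3A and wild type untreated, 0 as reported, was 1 with pseudocounts of 0.1 and 0.5 and with a robust prior, and 2 in the fit of only the 4 libraries compared. Over all genes, untreated GLP 3A against wild type gave 1541 calls as reported, 1011 after quantile normalization and 3450 with only 4 libraries. With RA the genotypes gave 1401, against 797 with no filter and 15 with only 4 libraries. The difference of RA responses gave 238, against 158 with a pseudocount of 0.1, 130 after quantile normalization and 362 with a robust prior. The share of higher calls between untreated genotypes was 64.4%, and 54.0% under both median-of-ratios and quantile scaling. Leaving out each library in turn gave 197 to 2336 calls between untreated genotypes, 301 to 2394 with RA, 7669 to 9302 for RA in GLP 3A cells, 7387 to 9420 for RA in wild type and 10 to 1129 for the difference of responses. For the set these counts were 0 to 1, 0 to 0, 6 to 7, 6 to 6 and 0 to 1.

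Reversals touched only differences that were never called. Rara between untreated genotypes was -0.028 after quantile normalization, and its difference of RA responses was 0.012 under median-of-ratios scaling and 0.12 after quantile normalization, where that of Ncor1 was 0.088. With 1 library left out, Rara ranged from -0.11 to 0.21 between untreated genotypes, from -0.18 to 0.26 with RA, from -0.14 to 0.30 for RA in GLP 3A cells, from -0.040 to 0.22 for RA in wild type and from -0.23 to 0.21 for the difference of responses. Between untreated genotypes Rarb ranged from -0.024 to 0.093, Rxrb from -0.16 to 0.072 and Ncoa3 from -0.12 to 0.0064, and with RA Rarg from -0.12 to 0.32 and Nrip1 from -0.29 to 0.0018. The difference of responses ranged from -0.083 to 0.13 for Rxra and from -0.10 to 0.037 for Ncor1. The cause was not tested.

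The labels give the groups the same replicate numbers but name no shared batch, and a comparison has only 2 pairs. Deviations of same-numbered libraries correlated at 0.17 to 0.36 over genes. With the replicate block 0 genes of the set were called between untreated genotypes, 0 with RA, 6 for RA in GLP 3A cells, 6 for RA in wild type and 0 for the difference of responses, and over all genes 1741, 1647, 9601, 9308 and 199. Depth in reads is unknown, and replicate 2 libraries are shallower by the rough estimate alone. Values of Rxrg and of untreated Rarb rest on few reads.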
